A study of Mus musculus with 9 samples.

Results

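Interferon-stimulated genes were examined in blood of mice 4 h after multiple injury. The list held 44 genes chosen by name, and 42 of them were measured, of 18194 genes on the arrays. Where a gene had several probe sets annotated with exactly 1 symbol, the brightest on average over the 9 arrays was used. The name of the probe set used ended in _x_at for Gbp2 and in _s_at for Trim25 and Ifi35, so their identity is uncertain. It is also uncertain for Oas1a, Ifit3, Trim30a, Ifitm2, Ifitm3, Gbp2 and Gbp3, which belong to families of near-identical genes. Isg15 was found only on a probe set annotated with several symbols, Ifi44 on no probe set under that symbol, and neither was analysed here.

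The animals were C57BL/6 mice of 8 to 9 weeks, with 3 animals in each of 3 groups. In the PT + HS group, polytrauma was followed 1 h later by a controlled hemorrhage that held the mean arterial blood pressure at 30 ± 5 mmHg during 60 min, then by balanced electrolyte solution at 4 times the drawn volume over 30 min, with norepinephrine as needed. The PT group received the polytrauma without the hemorrhage: a blunt chest trauma, an injury to the head and a closed fracture of the femur with damage to the surrounding soft tissue. Both injured groups were kept under sevoflurane, were given buprenorphine, carried an arterial and a venous catheter, and were sampled 4 h after trauma. Ctrl animals were healthy and not manipulated, and blood was drawn right after anesthesia was induced. The time under anesthesia, the analgesia and the catheters therefore differed between the injured groups and Ctrl together with the trauma, and their parts cannot be told apart. RNA came from whole blood, so platelets and reticulocytes contributed to it beside the leukocytes. More or fewer cells of a type and more or less RNA per cell cannot be told apart in such samples.

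Interferons are secreted proteins that warn cells of viruses and other threats. Type I interferons (alpha and beta) and type III interferons act through a complex of STAT proteins with IRF9 that binds the interferon-stimulated response element (ISRE), whereas interferon gamma acts through a STAT dimer that binds the gamma-activated site (GAS). The genes switched on in this way encode proteins that detect foreign nucleic acids, degrade or trap viral RNA, block the entry of viruses, or feed back on the pathway, and blood leukocytes, among them monocytes and neutrophils, are known to respond strongly.

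Values are log2 expression levels, and a difference is a difference of group means on that scale with the standard error from the limma fit. A gene was called when the unadjusted p was under 0.05 and the change was at least 1.5-fold. Levels of different probe sets were not set against each other, since probes differ in brightness. As a guide to the lowest usable level, 17 genes not used by blood cells averaged between 2.5 and 7.57, with a median of 3.78. Mx1, at a mean of 3.46, lay below that median, whereas the other measured interferon-stimulated genes lay above it. At or below the brightest of these genes, at 7.57, lay 28 of the 42, so for these the level alone does not separate a weak signal from none. The array of PT replicate 2 correlated with the others at r = 0.900 to 0.944 over all genes, whereas r was 0.958 or more among the remaining 8 arrays. The counts of called genes, the median differences and the median SD of the 42 genes are given with and without it. So are some single genes, whereas the other gene lists are given only with it.

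Most interferon-stimulated genes had slightly higher means in both injured groups than in Ctrl, though not in every animal. The median deviation of the 42 genes from the Ctrl mean was 0.40, 0.14 and 0.02 in PT + HS and 0.13, -0.01 and 0.22 in PT, against 0.02, -0.03 and 0.01 in Ctrl. PT + HS replicate 3 and PT replicate 2 lay within the Ctrl range. In PT + HS against Ctrl, 5 of the 42 genes were called higher and 0 lower, against 1.99% of all genes called higher, 1.29% called lower and 3.28% in either direction. The genes were Ifitm6, Ifitm2, Ifitm1, Zbp1 and Trim30a. The median difference of the 42 genes was 0.25, with quartiles of -0.02 and 0.47, and the median of all genes was -0.01. Differences were above 0 in 30 of the 42 genes, against 47.4% of all genes. In PT against Ctrl, 3 genes were called higher (Ifitm6, Zbp1 and Ifit1) and 0 lower, against 1.41% and 2.26% of all genes (3.67% in either direction). There the median difference was 0.18, with 31 of 42 genes above 0, against 49.9% of all genes. The difference from Ctrl was less than 1.5-fold in 33 of 42 genes in PT + HS and in 35 of 42 in PT. Over all 18194 genes it was less than 1.5-fold in 17182 and 17065, a larger share. Of the 42 genes, 41 had a mean above the median of all genes. Among all genes above that median, 5.18% were called in PT + HS against Ctrl (3.14% higher) and 5.94% in PT (2.14% higher). In that fit 4 and 3 of the 41 genes were called, all higher.

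Between PT + HS and PT, which differed by the hemorrhage and the resuscitation that followed it, no interferon-stimulated gene met the thresholds. In PT + HS against PT, 0 of the 42 genes were called, against 0.726% of all genes higher, 0.396% lower and 1.12% in either direction. The methods' t-test also called 0, against 0.418% of all genes. With so few calls over all genes, 0 of 42 does not set these genes apart. The median difference was 0.07, and 28 of 42 genes lay above 0, against 49.3% of all genes. The unadjusted p was under 0.05 for Adar alone, at a difference of 0.53 ± 0.24 (adjusted p = 1.0), which is below 1.5-fold. The other probe sets of Adar differed by 0.18 and -0.05. The largest positive differences were those of Ifitm2 (0.63 ± 0.48), Gbp2 (0.61 ± 0.35) and Ifitm1 (0.59 ± 0.41), and the largest negative ones those of Stat2 (-0.50 ± 0.26), Parp14 (-0.45 ± 0.34) and Ifit1 (-0.39 ± 0.29). These 6 differences were each smaller than 2 standard errors. Other probe sets differed by 0.43 for Gbp2, -0.20 for Stat2 and 0.15 for Parp14.

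After Benjamini-Hochberg adjustment over all genes, limma called 0 of the 42 genes at an adjusted p under 0.05 in each of the 3 comparisons. Of all 18194 genes it called 1 (0.0055%) in PT + HS against Ctrl and 0 in the other comparisons. At an unadjusted p under 0.05 the 42 genes gave 5 in PT + HS and 3 in PT against Ctrl, with 4.86% and 5.82% of all genes, and 1 between PT + HS and PT, with 2.87% of all genes. The smallest adjusted p of an interferon-stimulated gene was 0.581 in PT + HS and 0.610 in PT against Ctrl. PT + HS and PT were set against the same 3 Ctrl animals, so the values of both comparisons share that group.

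**Figure D1:**
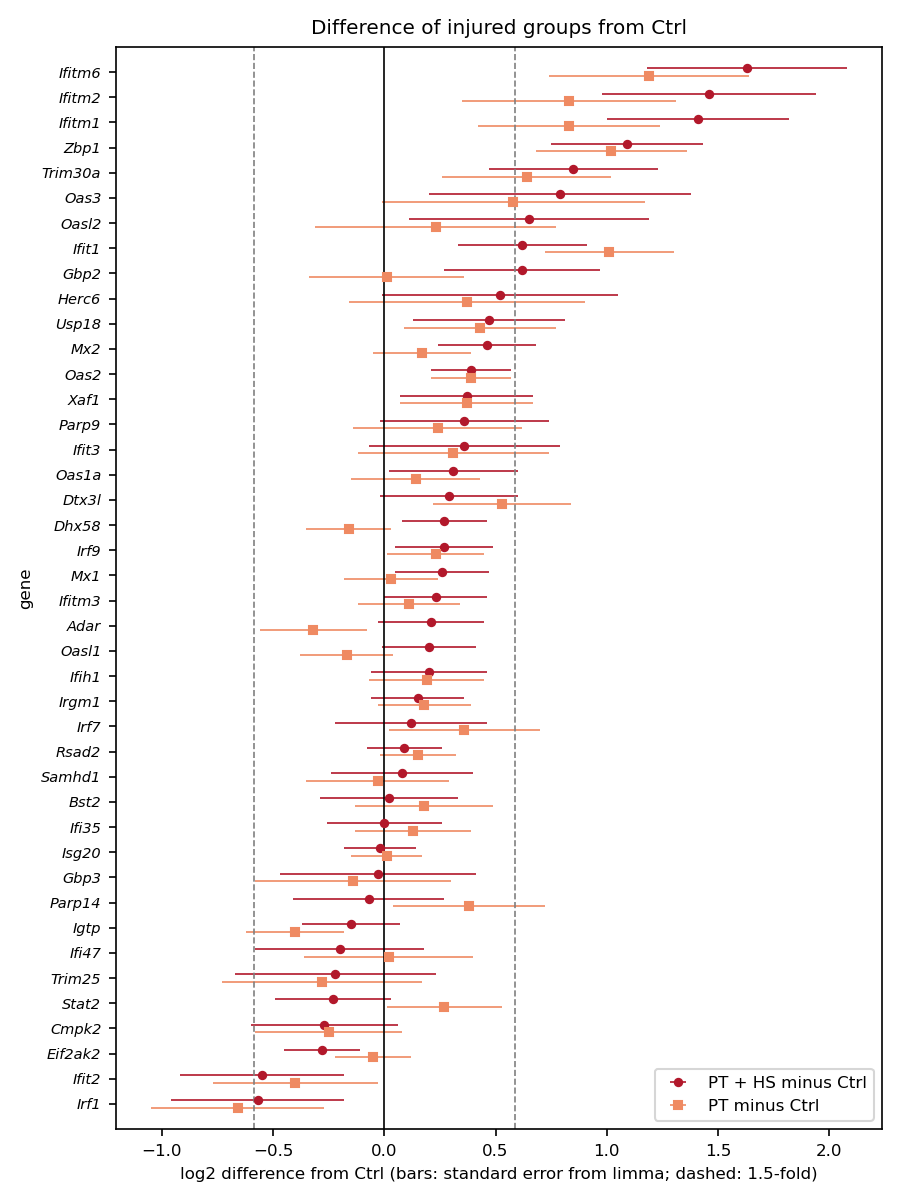
Log2 difference from Ctrl (horizontal axis) for each of the 42 interferon-stimulated genes (rows), in PT + HS (circles) and PT (squares), with bars for the standard error from limma and dashed lines at 1.5-fold. Ifitm6, Ifitm2, Ifitm1 and Zbp1 stand farthest to the right in PT + HS, at 1.63, 1.46, 1.41 and 1.09, and Irf1 farthest to the left at -0.57.

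The clearest differences were in the interferon-induced transmembrane (IFITM) family, small membrane proteins that hinder the fusion of enveloped viruses with cell membranes. Of its 4 members, Ifitm1, Ifitm2 and Ifitm6 were called higher in PT + HS than in Ctrl, and Ifitm3 was not. All 4 genes lie on chromosome 7. The 120 bases before each start site are shown because these neighbouring genes differed in their values, with matches to the interferon motifs defined further on in capitals (RefSeq, build GRCm38.p6, each 5′ to 3′ toward the start site).
Ifitm1, chr7:140967956-140968075 (+ strand): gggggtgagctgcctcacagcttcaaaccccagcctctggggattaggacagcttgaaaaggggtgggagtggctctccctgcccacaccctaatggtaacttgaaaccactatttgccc
Ifitm2, chr7:140955962-140956081 (- strand): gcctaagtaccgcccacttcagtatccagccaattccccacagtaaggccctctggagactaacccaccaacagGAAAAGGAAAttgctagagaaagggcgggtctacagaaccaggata
Ifitm3, chr7:141010745-141010864 (- strand): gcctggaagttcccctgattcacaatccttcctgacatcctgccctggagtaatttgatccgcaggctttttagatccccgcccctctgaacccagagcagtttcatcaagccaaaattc
Ifitm6, chr7:141016893-141017012 (- strand): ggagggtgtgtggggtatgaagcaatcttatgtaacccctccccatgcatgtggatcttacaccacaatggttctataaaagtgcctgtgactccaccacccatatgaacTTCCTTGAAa
In these stretches Ifitm2 held 1 ISRE core match and Ifitm6 held 1 GAS match, while Ifitm1 and Ifitm3 held neither. Ifitm3 had its 2 ISRE core matches just after the start site, at bases 2 and 19.

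Ifitm6, a family member of the same gene cluster, had levels of 10.89, 9.93 and 10.57 in PT + HS and 11.06, 9.61 and 9.40 in PT, against 9.40, 8.26 and 8.85 in Ctrl. Every PT + HS animal was above every Ctrl animal, whereas in PT the lowest animal met the highest Ctrl animal. The difference was 1.63 ± 0.45 in PT + HS (3.09-fold, adjusted p = 0.581) and 1.19 ± 0.45 in PT (2.28-fold, adjusted p = 0.797). The call in PT was lost without PT replicate 1, where the difference was 0.67, without Ctrl replicate 2 (0.90) and without Ctrl replicate 3 (1.19).

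Ifitm1, which acts mainly at the cell surface, had levels of 10.88, 9.46 and 10.51 in PT + HS and 10.16, 8.96 and 9.97 in PT, against 9.34, 8.61 and 8.66 in Ctrl. All PT + HS animals lay above the Ctrl range, and PT replicate 2 lay within it. The difference was 1.41 ± 0.41 in PT + HS (2.66-fold, adjusted p = 0.631) and 0.83 ± 0.41 in PT (adjusted p = 0.923). Without PT replicate 2 the difference of PT from Ctrl was 1.20 and was called.

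Ifitm2, which like Ifitm3 acts in endosomal membranes, had levels of 10.22, 9.16 and 10.33 in PT + HS and 10.22, 8.76 and 8.85 in PT, against 9.21, 8.27 and 7.86 in Ctrl. PT + HS replicate 2 lay just below the highest Ctrl animal, so the groups touched. The difference in PT + HS was 1.46 ± 0.48 (2.75-fold, adjusted p = 0.787), and the call was lost without PT + HS replicate 3 (1.25) and without Ctrl replicate 3 (1.17). In PT it was 0.83 ± 0.48 (adjusted p = 0.958).

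Ifitm3, the family member best known for restricting influenza virus, had levels of 11.24, 10.92 and 11.02 in PT + HS and 11.26, 11.13 and 10.43 in PT, against 11.00, 10.79 and 10.70 in Ctrl. The groups overlapped, with differences of 0.23 ± 0.23 and 0.11 ± 0.23 from Ctrl. Bst2, or tetherin, which holds budding virus particles at the cell surface, differed from Ctrl by 0.02 ± 0.31 in PT + HS and 0.18 ± 0.31 in PT.

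**Figure D2:**
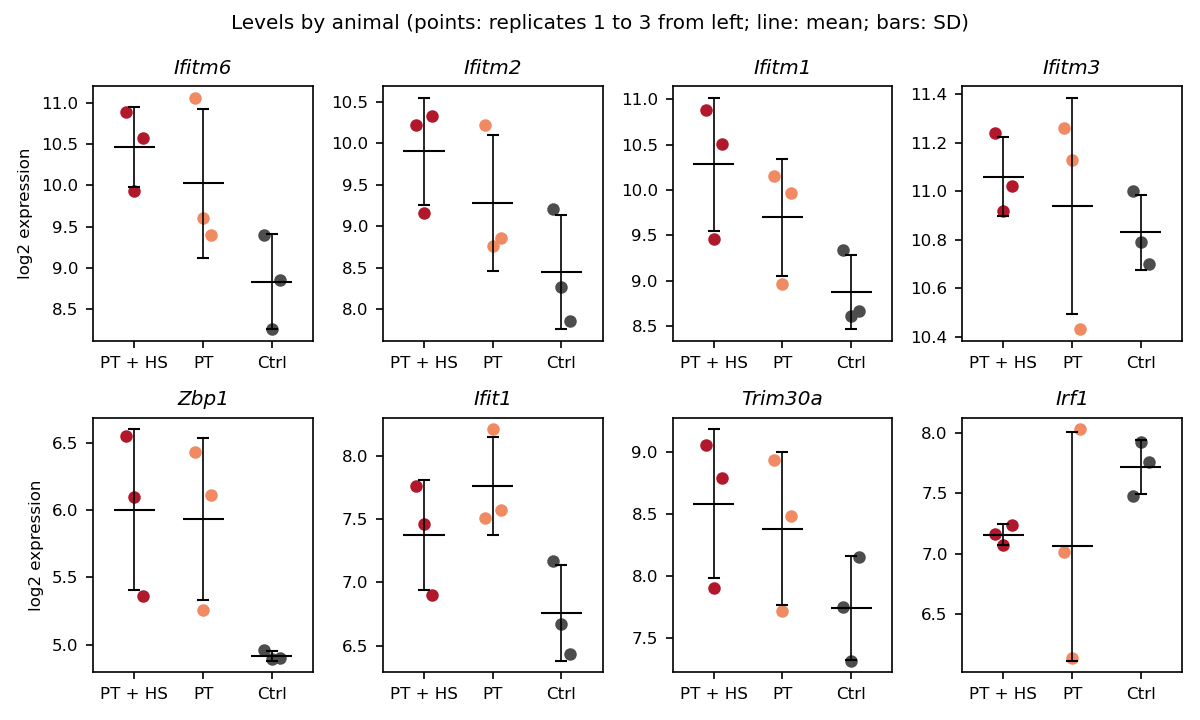
Log2 expression (vertical axes, a range of its own for each gene) of 8 interferon-stimulated genes in each animal, with groups on the horizontal axes, points for the animals, a line for the mean and bars for the SD. Zbp1 separates both injured groups from Ctrl, and Irf1 lies lower in all PT + HS animals than in any Ctrl animal.

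Among the sensors of nucleic acids, Zbp1 stood apart. Zbp1 recognises nucleic acids in the Z conformation and can start necroptosis. Its levels were 6.55, 6.10 and 5.36 in PT + HS and 6.43, 5.26 and 6.11 in PT, against 4.96, 4.89 and 4.90 in Ctrl. The Ctrl animals were almost equal and each injured animal lay above them, although the injured animals spread over more than 1 unit. The difference was 1.09 ± 0.34 in PT + HS (2.13-fold, adjusted p = 0.724) and 1.02 ± 0.34 in PT (2.03-fold, adjusted p = 0.721). The call in PT was lost without PT replicate 1, at 0.77. The other probe set of Zbp1 showed smaller differences of 0.46 and 0.29.

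The other sensors and editors were not called. Ifih1, the MDA5 helicase that binds long double-stranded RNA, differed from Ctrl by 0.20 ± 0.26 in PT + HS and 0.19 ± 0.26 in PT. Dhx58, a helicase that assists it, had levels of 4.98, 5.04 and 4.97 in PT + HS, against 4.85, 4.21 and 4.64 in PT and 4.57, 4.69 and 4.92 in Ctrl. The PT + HS animals lay just above those of both other groups, by 0.43 ± 0.19 over PT. Its other probe sets differed between PT + HS and PT by 0.44 and -0.02. Eif2ak2, the kinase PKR that halts translation, lay lower in PT + HS at 4.99, 4.60 and 5.04 than in PT at 5.07, 5.15 and 5.12 or Ctrl at 5.15, 5.07 and 5.25. Its other probe sets differed from Ctrl by 0.28 and 0.01, so its direction depended on the probe set. Adar, which edits adenosine to inosine in double-stranded RNA, had levels of 6.34, 5.76 and 6.51 in PT + HS and 5.68, 5.33 and 6.00 in PT, against 6.01, 5.91 and 6.06 in Ctrl.

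The separation of groups without a call was also counted over the whole list. All PT + HS animals lay above all Ctrl animals in 8 of the 42 genes and below them in 2, against 6.55% and 6.68% of all genes. The 8 genes were Oas2, Mx1, Mx2, Gbp2, Dhx58, Zbp1, Ifitm1 and Ifitm6, and those below were Irf1 and Eif2ak2. PT was apart from Ctrl upward in 3 genes (Ifit1, Oas2 and Zbp1) and downward in 0, against 4.32% and 5.12% of all genes. PT + HS was apart from PT upward in 2 genes (Oasl1 and Dhx58) and downward in 1 (Eif2ak2), against 3.61% and 3.56% of all genes.

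The transcription factors of the pathway were not called in any comparison. Irf7, which drives the production of type I interferons, had levels of 9.49, 9.28 and 9.09 in PT + HS and 9.10, 10.46 and 9.04 in PT, against 9.39, 9.20 and 8.92 in Ctrl. Apart from PT replicate 2, all animals lay between 8.92 and 9.49. Irf1, a factor induced strongly by interferon gamma, had levels of 7.16, 7.07 and 7.24 in PT + HS and 7.01, 6.14 and 8.03 in PT, against 7.48, 7.92 and 7.76 in Ctrl. The PT + HS animals lay below the Ctrl range with a difference of -0.57 ± 0.39, and the PT animals lay on both sides of it, at -0.66 ± 0.39. Without PT replicate 2 the difference of PT from Ctrl was -0.20 ± 0.28. Irf9, the DNA-binding part of the type I complex, differed from Ctrl by 0.27 ± 0.22 in PT + HS and 0.23 ± 0.22 in PT. Stat2, its partner, had levels of 4.75, 4.60 and 5.17 in PT + HS, against 5.66, 5.42 and 4.94 in PT and 5.21, 4.67 and 5.34 in Ctrl, and the ranges overlapped.

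The IFIT proteins bind foreign RNA and block its translation, and their 3 genes did not move together. Ifit1 had levels of 7.76, 7.46 and 6.90 in PT + HS and 7.51, 8.21 and 7.57 in PT, against 7.17, 6.67 and 6.43 in Ctrl. All PT animals lay above the Ctrl range, with a difference of 1.01 ± 0.29 (2.01-fold, adjusted p = 0.610), and PT kept its call without any 1 of the 9 animals. In PT + HS the difference was 0.62 ± 0.29 (adjusted p = 0.999) and the ranges overlapped. Ifit2 went the other way, with levels of 6.17, 5.56 and 5.26 in PT + HS and 6.18, 4.96 and 6.32 in PT, against 5.95, 6.51 and 6.20 in Ctrl. Its differences of -0.55 ± 0.37 and -0.40 ± 0.37 were within the spread between animals. Ifit3 differed from Ctrl by 0.36 ± 0.43 in PT + HS and 0.31 ± 0.43 in PT.

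The oligoadenylate synthetase family includes enzymes that make the messenger that activates RNase L. All 5 genes of the family measured had higher means in PT + HS than in Ctrl, by 0.20 to 0.79, without a call. Oas3 had levels of 7.58, 7.27 and 6.94 in PT + HS and 7.06, 8.49 and 5.61 in PT, against 7.03, 6.30 and 6.11 in Ctrl. PT held both the highest and the lowest animal, with an SD of 1.44, the widest of any interferon-stimulated gene in any group. Without PT replicate 2 the widest in PT was that of Ifitm6, at 1.17. Oas1a had levels of 7.66, 7.23 and 7.27 in PT + HS and 7.15, 7.83 and 6.67 in PT, against 7.35, 6.81 and 7.07 in Ctrl. Oasl2 had 7.80, 7.27 and 7.34 in PT + HS and 6.38, 8.30 and 6.48 in PT, against 7.49, 7.15 and 5.82 in Ctrl, again with PT replicate 2 on top. Oas2 was the tightest of the family, at 6.94, 6.75 and 6.94 in PT + HS and 6.74, 7.21 and 6.66 in PT, against 6.47, 6.48 and 6.49 in Ctrl. Every injured animal was above every Ctrl animal in Oas2, by 0.39 ± 0.18 in both groups (adjusted p = 0.999 in PT + HS and 0.877 in PT). Oasl1, which in the mouse restrains the translation of Irf7, had levels of 5.96, 5.40 and 5.41 in PT + HS and 4.92, 5.38 and 5.37 in PT, against 5.46, 5.43 and 5.29 in Ctrl.

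The Mx proteins are dynamin-like GTPases that trap viral components. In C57BL/6 mice Mx1 carries a deletion and encodes no working protein. Mx2 had levels of 5.52, 4.81 and 5.10 in PT + HS and 4.75, 5.20 and 4.60 in PT, against 4.62, 4.72 and 4.69 in Ctrl. The PT + HS animals were above all Ctrl animals, by 0.46 ± 0.22 (adjusted p = 0.999), but PT + HS replicate 2 only narrowly so. Mx1 differed by 0.26 ± 0.21 at a level near that of genes not used in blood.

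The guanylate-binding proteins and immunity-related GTPases coat vacuoles that hold bacteria or parasites and are induced mainly by interferon gamma. Over the 5 genes measured, the median of the differences was -0.03 for PT + HS and 0.01 for PT. Gbp2 had levels of 6.92, 6.46 and 6.95 in PT + HS and 6.21, 5.40 and 6.89 in PT, against 5.75, 6.33 and 6.41 in Ctrl. It was above Ctrl in all PT + HS animals, by 0.62 ± 0.35 (adjusted p = 0.999), and its other probe set differed by 0.73. Igtp had levels of 8.63, 8.59 and 8.48 in PT + HS and 8.36, 7.87 and 8.73 in PT, against 8.77, 8.89 and 8.50 in Ctrl. Ifi47 had levels of 8.68, 8.46 and 8.18 in PT + HS and 8.80, 7.71 and 9.46 in PT, against 8.39, 8.69 and 8.83 in Ctrl. Irgm1 differed from Ctrl by 0.15 ± 0.21 in PT + HS and 0.18 ± 0.21 in PT, and Gbp3 by -0.03 ± 0.44 and -0.14 ± 0.44. Over this family the PT animals went apart, with a median deviation from the Ctrl mean of 0.14, -0.85 and 0.73, while the PT + HS animals stayed at 0.04, 0.11 and -0.11.

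The ISG15 system attaches a ubiquitin-like protein to others, and several ubiquitin ligases belong to the same response. Trim30a, a ligase that in the mouse restrains signaling from toll-like receptors, had levels of 9.06, 7.91 and 8.79 in PT + HS and 8.94, 7.72 and 8.49 in PT, against 7.75, 7.32 and 8.16 in Ctrl. The ranges overlapped through replicate 2 of each injured group. The difference in PT + HS was 0.85 ± 0.38 (1.80-fold, adjusted p = 0.999), and its other probe set differed by 0.68. This call was at the edge of the threshold and was lost without Ctrl replicate 1 (0.85), Ctrl replicate 2 (0.64), PT replicate 3 (0.85), PT + HS replicate 1 (0.61) or PT + HS replicate 3 (0.75). Usp18, which removes ISG15 and dampens the type I receptor, differed from Ctrl by 0.47 ± 0.34 in PT + HS and 0.43 ± 0.34 in PT. Herc6, the ligase for ISG15 in the mouse, had levels of 6.09, 6.12 and 4.76 in PT + HS and 5.48, 6.40 and 4.63 in PT, against 5.68, 5.46 and 4.26 in Ctrl. In each group replicate 3 was the lowest animal. Dtx3l, a ligase that pairs with Parp9, differed by 0.29 ± 0.31 and 0.53 ± 0.31, and Trim25, which acts on the RNA sensor RIG-I, by -0.22 ± 0.45 and -0.28 ± 0.45.

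Parp9, an ADP-ribosyltransferase, had levels of 7.36, 6.92 and 6.43 in PT + HS and 6.74, 6.07 and 7.54 in PT, against 6.16, 6.48 and 6.99 in Ctrl. Parp14, of the same enzyme family, had levels of 5.79, 5.75 and 5.84 in PT + HS, against 6.27, 5.59 and 6.88 in PT and 5.43, 5.69 and 6.48 in Ctrl. The PT + HS animals were tightly grouped inside the range of the others in Parp14.

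Among the enzymes that act on nucleotides and nucleic acids, Isg20 and Rsad2 were close to the top of the scale in every animal and did not separate the groups. Isg20, an exonuclease that degrades RNA, had levels of 13.07, 13.07 and 13.13 in PT + HS and 13.08, 13.33 and 12.95 in PT, against 13.16, 13.12 and 13.05 in Ctrl. Rsad2, or viperin, which makes a chain-terminating nucleotide, had levels of 13.05, 13.15 and 12.85 in PT + HS and 13.03, 13.33 and 12.87 in PT, against 12.95, 12.98 and 12.85 in Ctrl. All 3 probe sets of Rsad2 differed from Ctrl by no more than 0.17. Cmpk2, the neighbouring nucleotide kinase, differed from Ctrl by -0.27 ± 0.33 in PT + HS and -0.25 ± 0.33 in PT, and Samhd1, which depletes the nucleotides viruses need, by 0.08 ± 0.32 and -0.03 ± 0.32. Ifi35 (0.00 ± 0.26 and 0.13 ± 0.26) and Xaf1 (0.37 ± 0.30 in both), an antagonist of the apoptosis inhibitor XIAP, were not called either. Levels of Ifi35 were 9.00, 8.60 and 8.21 in PT + HS and 8.90, 8.46 and 8.87 in PT, against 8.33, 8.42 and 9.08 in Ctrl.

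**Figure D3:**
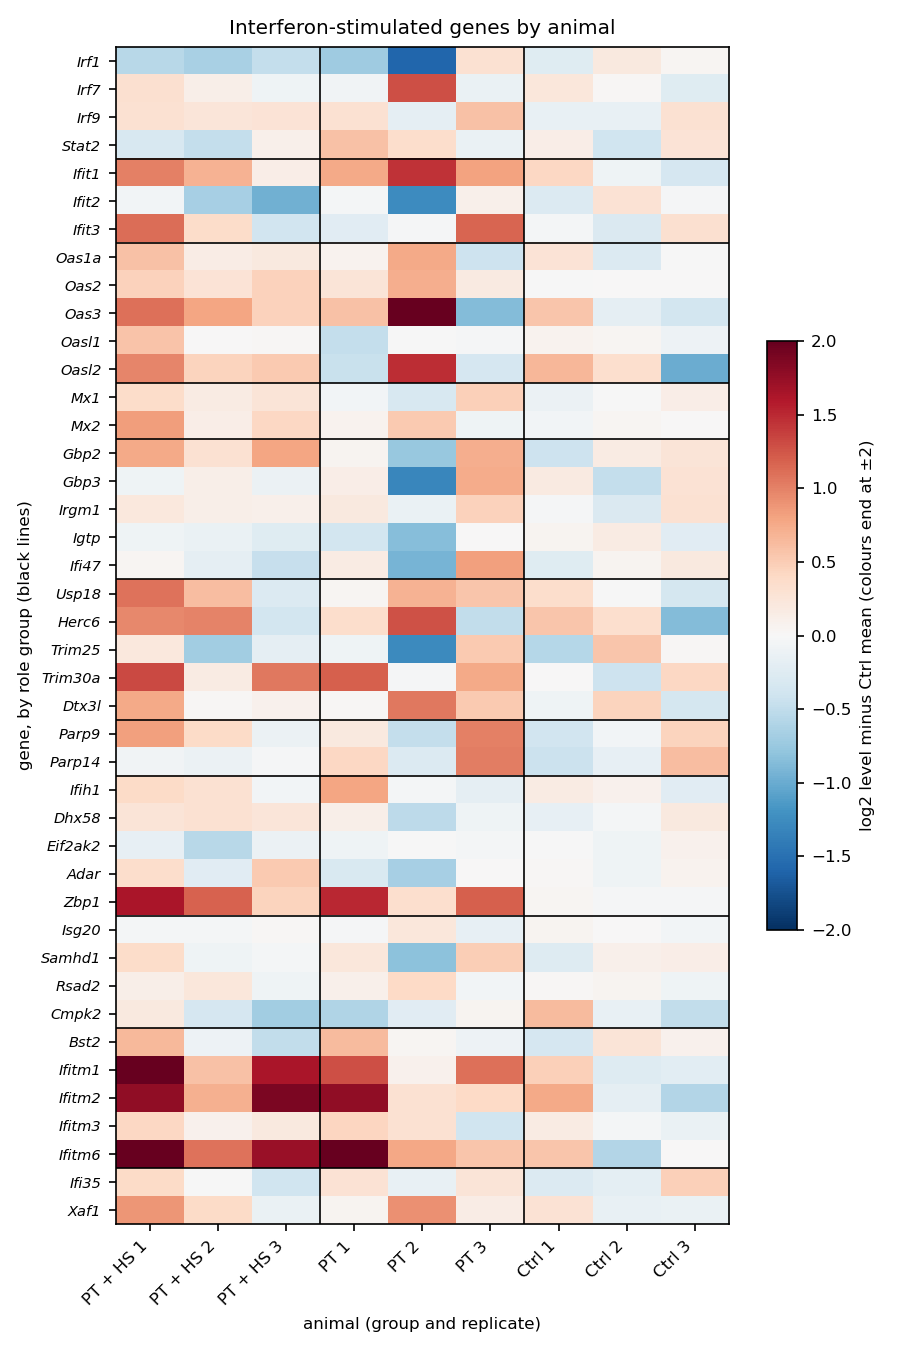
Heat map of the log2 level minus the Ctrl mean (colour scale, ending at ±2) for the 42 interferon-stimulated genes (rows, by role) in each of the 9 animals (columns). PT replicate 2 shows Irf7, Oas3, Oasl2 and Herc6 high beside Irf1, Ifit2, Gbp3 and Trim25 low, whereas the Ifitm1, Ifitm2, Ifitm6 and Zbp1 rows are high across most injured animals.

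The spread between animals of a group was wider at the median of these genes than at the median of all genes. The median SD was 0.308 in PT + HS, 0.518 in PT and 0.288 in Ctrl, against 0.208, 0.306 and 0.222 over all genes. Without PT replicate 2, the median SD in PT was 0.33, against 0.181 over all genes. PT replicate 2 was the highest of all 9 animals in 11 of the 42 genes and the lowest in 13, against 22.4% and 23.2% of all genes. It was highest in Irf7, Ifit1, Oas1a, Oas2, Oas3, Oasl2, Herc6, Dtx3l, Isg20, Rsad2 and Xaf1, and lowest in Irf1, Irf9, Ifit2, Mx1, Gbp2, Gbp3, Igtp, Ifi47, Trim25, Parp9, Dhx58, Adar and Samhd1. The sharpest cases were Oas3, at 8.49 against at most 7.58 in any other animal, Irf7, at 10.46 against at most 9.49, and Gbp3, at 4.68 against at least 5.51.

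Marker lists of blood cells were read in the same animals. Reticulocyte markers stood at a median of 0.56 above the Ctrl mean in PT replicate 2, and that animal was the highest of 9 in 6 of the 8 markers measured. In Ctrl replicate 1 these markers stood at 0.43, and Irf7, Oas3, Oasl2 and Herc6 had their highest Ctrl levels there. In PT + HS replicate 1 the markers stood at -0.03, while Oas3, Oasl2 and Herc6 were at 7.58, 7.80 and 6.09, against Ctrl means of 6.48, 6.82 and 5.13. The summed level of the reticulocyte markers was 27970 to 30242 in PT + HS and 27849 to 35028 in PT, against 29406 to 31049 in Ctrl. The upper end in PT was replicate 2. B cell markers were lowest in the same animal, at a median of -2.07, with a summed level of 844 to 1216 in PT + HS and 498 to 2077 in PT, against 2162 to 4174 in Ctrl. Of the 8 B cell markers measured, 7 were called lower than Ctrl in each injured group. Gbp3, Igtp and Ifi47 were lowest in PT replicate 2 and highest among the PT animals in PT replicate 3, as were the sums of the B cell and T cell markers. T cell markers deviated by a median of 0.05, -0.56 and 1.21 in the PT animals, and their summed level was 1375 to 2156 in PT + HS and 1062 to 3500 in PT, against 1266 to 2171 in Ctrl. Of the 8 T cell markers measured, 0 were called in either injured group against Ctrl. B cell sums were highest in Ctrl, which held for the means of some of the GTPases and not for others. The Ctrl means of Gbp3 and Igtp, at 5.98 and 8.72, were above those of both injured groups. The Ctrl mean of Ifi47, at 8.64, lay between PT + HS at 8.44 and PT at 8.66. Those of Gbp2 and Irgm1, at 6.16 and 6.52, were below both injured groups. The part of reticulocytes, B cells and T cells in the values of Irf7, Oas3, Oasl2, Herc6 and the GTPases was not tested.

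Without PT replicate 2, 4 interferon-stimulated genes were called between PT + HS and PT, against 1.39% of all genes higher and 3.31% lower. Oas3 (0.93 ± 0.41) and Oasl2 (1.04 ± 0.41) were then higher in PT + HS, and Ifi47 (-0.69 ± 0.25) and Parp14 (-0.78 ± 0.30) were lower, with adjusted p of 0.626 to 0.670. PT then had 6 genes called above Ctrl, namely Ifit1, Ifitm1, Ifitm6, Parp14, Trim30a and Zbp1, with a smallest adjusted p of 0.138, against 4.22% of all genes called higher. PT + HS had 7, through the addition of Gbp2 and Ifit1, against 2.52% of all genes called higher. The median difference was then 0.02 between PT + HS and PT, 0.25 between PT + HS and Ctrl, and 0.23 between PT and Ctrl.

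Neutrophil and classical monocyte markers were also higher in the injured groups, in which Ifitm1, Ifitm2, Ifitm6 and Zbp1 had their highest levels, although the genes and markers did not run together in every animal. Neutrophil markers had a median deviation from the Ctrl mean of 1.41, 0.71 and 1.46 in PT + HS and 1.27, 0.37 and 1.17 in PT, against 0.45, -0.26 and -0.16 in Ctrl. Of the 12 measured, 11 were higher than Ctrl in each injured group, and 7 in PT + HS and 5 in PT were called. Their summed level was 9633 to 23219 in PT + HS and 7127 to 18107 in PT, against 4311 to 7712 in Ctrl. Classical monocyte markers deviated by 1.13 to 1.60 in PT + HS and 0.76 to 2.15 in PT, against -0.07 to 0.29 in Ctrl. Of the 9 measured, 6 in PT + HS and 5 in PT were called higher, and the sums were 4195 to 5737 and 2621 to 7127, against 2206 to 3446 in Ctrl. In Ifitm1 and Ifitm2, as in the neutrophil markers, replicate 2 was the lowest animal of each injured group and replicate 1 the highest of Ctrl. Zbp1 differed from that order, being lowest among the PT + HS animals in replicate 3, at 5.36. There the median deviations of the neutrophil and monocyte markers were highest, at 1.46 and 1.60, but close to those of replicate 1, at 1.41 and 1.54. The sums of both lists were highest in replicate 1, at 23219 and 5737, where Zbp1 was also highest, at 6.55. Ifitm6 in PT replicate 3 only equalled Ctrl replicate 1, at 9.40 in both, where the neutrophil markers stood at 1.17 in the PT animal and 0.45 in the Ctrl animal. The part of neutrophils and monocytes in the higher levels of the IFITM genes, Zbp1 and Trim30a was not tested.

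**Figure D4:**
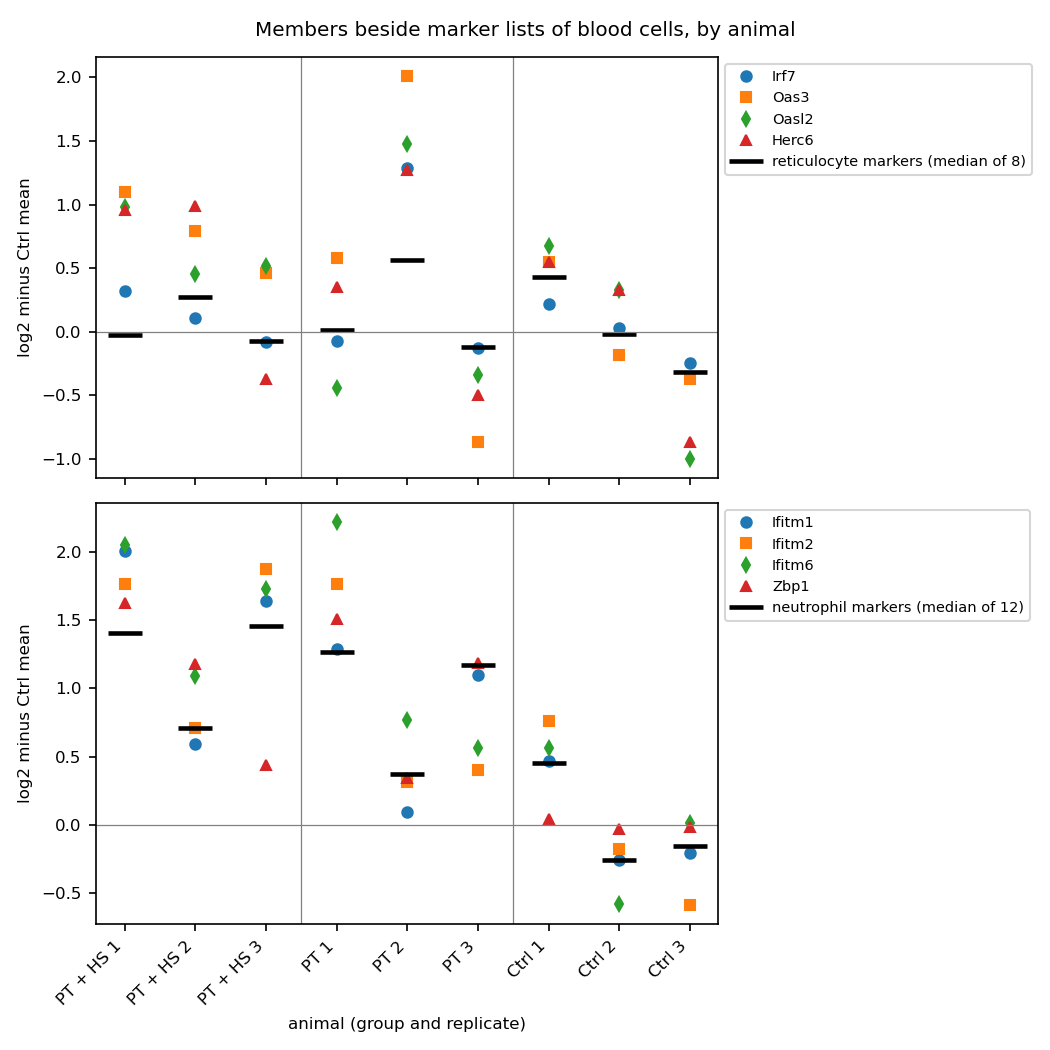
Log2 level minus the Ctrl mean (vertical axes) in each animal (horizontal axis) for Irf7, Oas3, Oasl2 and Herc6 beside the median of 8 reticulocyte markers (upper panel, black bars) and for Ifitm1, Ifitm2, Ifitm6 and Zbp1 beside the median of 12 neutrophil markers (lower panel, black bars). In the upper panel all 4 genes and the reticulocyte bar peak in PT replicate 2, but in PT + HS replicate 1 the bar is at -0.03 while all 4 genes lie above the Ctrl mean. In the lower panel the neutrophil bars reach 0.71 to 1.46 in PT + HS, against at most 0.45 in Ctrl.

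The interferons themselves and their receptors were read from a list of 23 genes, of which 15 were measured. Ifnb1 averaged 3.75 in PT + HS and 3.65 in PT, against 3.46 in Ctrl, and Ifng 3.09 and 2.92, against 3.30, all below 3.78, the median of the genes not used by blood cells. The 7 alpha interferons measured had group means of 2.80 to 7.50 in PT + HS and 3.11 to 7.58 in PT. In Ctrl these means were 3.22 to 7.65, and no alpha interferon was called. Ifna1 alone gave the upper end in each group. The other alpha interferons averaged between 3.04 (Ifna4) and 4.74 (Ifnab) over the 9 arrays. Ifnlr1, the type III receptor chain, was called higher in PT + HS (4.12, 4.48 and 4.87) and in PT (4.15, 4.39 and 4.35) than in Ctrl (3.43, 3.31 and 3.57), by 1.05 ± 0.21 and 0.86 ± 0.21, at levels near that median. Il10rb, the chain it shares with the interleukin-10 receptor, was called higher in PT + HS, by 0.60 ± 0.24. Ifnar1, a chain of the type I receptor, had levels of 5.68, 5.08 and 5.09 in PT + HS, against 4.35, 4.99 and 4.65 in PT, and was called at 0.62 ± 0.26 (adjusted p = 1.0). Ifnar2 averaged 8.50 in PT + HS and 8.30 in PT, against 8.25 in Ctrl. The gamma receptor chains were close to level, Ifngr1 at 8.21 and 8.44, against 7.98, and Ifngr2 at 7.80 and 7.46, against 7.55.

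Of 28 genes for sensors and signaling, 26 were measured. Called against Ctrl were 7.69% of them in PT + HS and 19.2% in PT, against 3.28% and 3.67% of all genes. Socs3, a feedback inhibitor of cytokine receptors that many cytokines besides interferons induce, had levels of 9.35, 8.84 and 9.66 in PT + HS and 9.97, 8.02 and 9.54 in PT, against 7.49, 6.04 and 6.45 in Ctrl. It was called in both injured groups, by 2.62 ± 0.51 and 2.51 ± 0.51. Myd88, the adaptor of toll-like and interleukin-1 receptors, was also called in both, by 1.11 ± 0.35 and 0.89 ± 0.35. In PT, 3 of the 26 genes were called lower, against 2.26% of all genes. They were Tyk2, a kinase of the type I receptor (-0.84 ± 0.20), the phosphatase Ptpn6 (-0.87) and Unc93b1, a chaperone of endosomal toll-like receptors (-0.67). Tyk2 was the only one of the 26 called between PT + HS and PT, at 5.76, 5.96 and 5.70 against 5.20, 4.85 and 5.53. PT replicate 2 was the lowest of all 9 animals in 15 of the 26 genes (57.7%), against 23.2% of all genes. The calls in this list are not given without that array.

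A wider list of 89 other interferon-induced genes had 71 measured, of which 8 were called higher and 1 lower in each injured group against Ctrl. That is 12.7% of the list, against 3.28% of all genes in PT + HS and 3.67% in PT. PT + HS had a median difference of 0.03 over this list, and PT of 0.11. The 8 higher genes were the same in both: Ms4a6d (3.78 in PT + HS and 3.22 in PT), Fcgr1 (1.97 and 1.71), Casp4 (1.84 and 1.63), Slfn4 (1.81 and 1.52), Slfn1 (1.43 and 1.23), Ifi207 (1.38 and 0.89), Ifi204 (1.31 and 1.24) and Rtp4 (0.84 and 0.86). Fcgr1 is the high-affinity receptor for IgG of monocytes and macrophages, Casp4 the inflammatory caspase that senses lipopolysaccharide, and Slfn4 a Schlafen gene of myeloid cells. Ms4a6d had levels of 9.06, 8.87 and 8.97 in PT + HS and 9.91, 8.18 and 7.12 in PT, against 6.22, 4.83 and 4.50 in Ctrl. Pml, the scaffold of nuclear bodies, was called lower in PT + HS (5.12, 5.09 and 5.16, against 5.61, 6.09 and 6.55 in Ctrl). The chemokine Ccl5 was called lower in PT (-0.73). Ccl5 was also on the list of NK cell markers. Of the 9 measured there, 6 were called lower in PT, Ccl5 among them, against 2.26% of all genes. The part of NK cells in its level was not tested. Between PT + HS and PT the only call was Slfn5, at 4.10, 4.02 and 4.02 in PT + HS against 4.58, 4.73 and 4.62 in PT (-0.60 ± 0.14, adjusted p = 1.0).

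Promoter sequences from RefSeq (GRCm38.p6, from 250 bases before to 50 after the start site) were matched to 36 of the 44 genes by symbol. The ISRE core was searched as GAAANNGAAA on both strands and the GAS as TTCNNNGAA, which reads the same on both strands. The ISRE core was present for 17 of the 36 genes (47.2%), against 3.99% of 27025 genes in the table, and the GAS for 12 (33.3%), against 9.55%. Both were present in 5 genes, and their matches overlapped in Bst2 and Ifitm3, while 12 genes had neither. The windows below show the match in capitals with up to 10 bases on each side, for genes whose values differed in direction or between animals; capitals beginning with TTTC are ISRE cores on the other strand.
Ifit1, ISRE match, chr19:34640775-34640804 (+ strand): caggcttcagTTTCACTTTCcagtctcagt
Ifit1, ISRE match, chr19:34640794-34640823 (+ strand): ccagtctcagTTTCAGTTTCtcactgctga
Oas3, ISRE match, chr5:120777715-120777744 (- strand): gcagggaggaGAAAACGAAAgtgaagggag
Trim30a, ISRE match, chr7:104465210-104465239 (- strand): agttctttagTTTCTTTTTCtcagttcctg
Gbp2, ISRE match, chr3:142620594-142620623 (+ strand): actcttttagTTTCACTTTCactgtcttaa
Gbp3, ISRE match, chr3:142559989-142560018 (+ strand): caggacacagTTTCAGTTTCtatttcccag
Igtp, ISRE match, chr11:58199512-58199541 (+ strand): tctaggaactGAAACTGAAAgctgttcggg
Igtp, GAS match, chr11:58199501-58199529 (+ strand): aactagccatTTCTAGGAActgaaactga
Irf1, GAS match, chr11:53769914-53769942 (+ strand): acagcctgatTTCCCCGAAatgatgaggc
Ifit2, GAS match, chr19:34550444-34550471 (+ strand): catgggagcTTCCTGGAAgaatggataa
Ifitm3, ISRE match, chr7:141010723-141010752 (- strand): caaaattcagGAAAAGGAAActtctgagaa
Ifit1, with 2 ISRE core matches, was called higher in PT, and Oas3, with 1, ranged between 5.61 and 8.49 within that group. Irf1, Ifit2 and Ifitm6 carried a GAS and no ISRE core match, and they differed in direction, Irf1 and Ifit2 being negative and Ifitm6 the most positive of the list against Ctrl.

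The differences were also read by motif. The 16 measured genes with an ISRE core differed from Ctrl by a median of 0.22 in PT + HS and 0.18 in PT, against 0.16 and 0.08 for the 18 without one. The 12 with a GAS had medians of 0.01 and -0.01, against 0.28 and 0.25 for the 22 without one. Between PT + HS and PT all 4 medians lay between 0.04 and 0.10. These groups of genes were described without a test, and a match of letters does not show that a factor binds there.

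**Figure D5:**
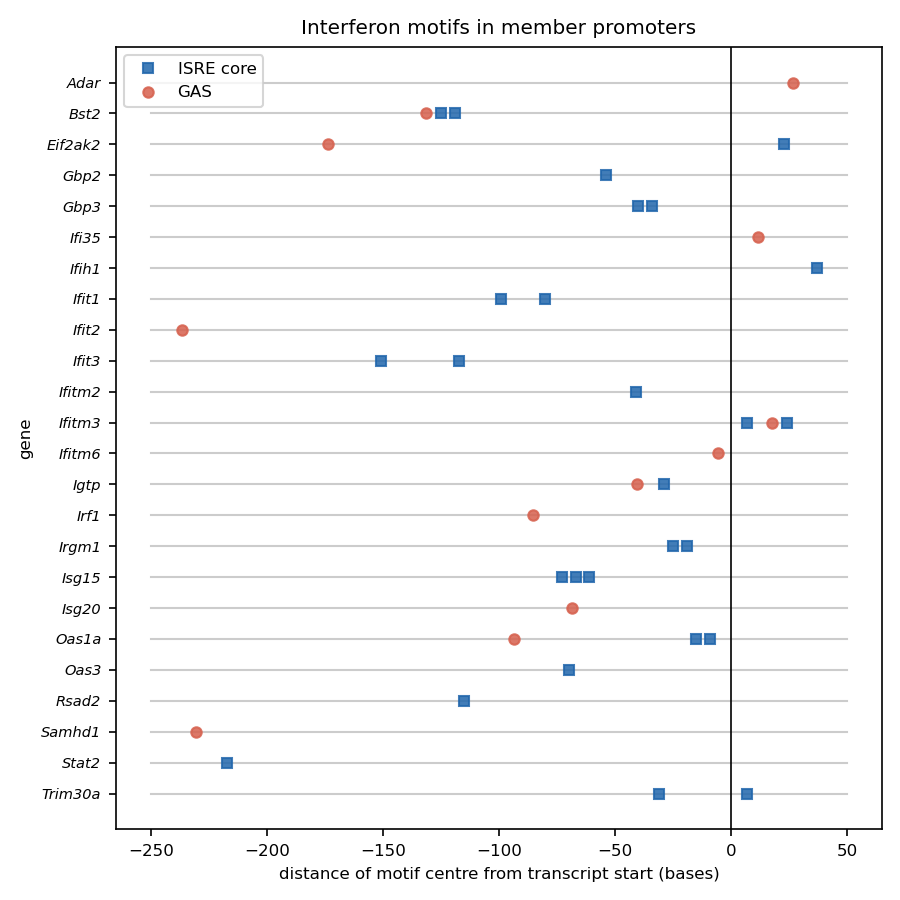
Positions of ISRE core (squares) and GAS (circles) matches along the promoters of the interferon-stimulated genes that had a match (rows), as the distance of the match centre from the transcript start in bases (horizontal axis, from 250 before to 50 after). Ifitm3 has its matches after the start, Ifitm2 and Ifitm6 have theirs before it, and Ifitm1 is not listed because it had none.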

How the data were processed

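RNA from whole blood of 9 mice (3 per group) was hybridized to Affymetrix arrays. The methods name the Mouse Gene 1.0 ST array, whereas the probe set names are of the Mouse Genome 430 2.0 type. The deposited values are log2 expression summaries, normalized by the authors with the robust multiarray average. Of 45101 probe sets, 34958 had 1 gene symbol, 932 several and 9211 none. Symbols were updated through Entrez numbers, and the probe set with the highest mean stood for each of 18194 genes. The interferon-stimulated genes and all lists were chosen with earlier results of these data known.

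Groups were compared in limma 3.58.1 (R 4.3.3) with all 9 arrays in 1 model, a moderated two-sided test and Benjamini-Hochberg adjustment over all genes, after the script had been tested on simulated data. The thresholds of an unadjusted p under 0.05 and 1.5-fold follow the methods, whose plain t-test was an alternative. Genes were given per animal if called in a comparison, among the 3 largest differences in either direction, or highest in mean in their role group; others were added after their values were seen. Alternatives were the fit on 2 groups alone, an intensity trend, array weights, other scalings, a filter on dim genes, the mean of probe sets, a replicate block and leaving out each animal. With 3 animals per group the number of arrays limits the precision. Promoters were searched and figures drawn in Python 3.11.15 with pandas 2.3.3 and matplotlib 3.10.9.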

Additional observations from a re-analysis of the deposited data

Results flagged for a closer look

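Oasl1 lay on opposite sides of the Ctrl mean in the injured groups, without a call in either (0.20 ± 0.21 in PT + HS and -0.17 ± 0.21 in PT). Its levels were 5.96, 5.40 and 5.41 in PT + HS and 4.92, 5.38 and 5.37 in PT, against 5.46, 5.43 and 5.29 in Ctrl. Every PT + HS animal was above the Ctrl mean of 5.39 and every PT animal below it. PT + HS exceeded PT by 0.37 ± 0.21 in limma, with an adjusted p of 1.0, and most of the gap came from PT + HS replicate 1 and PT replicate 1. The other 4 injured animals lay between 5.37 and 5.41.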

How the results depend on the processing

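The number of interferon-stimulated genes called moved with several choices. In PT + HS against PT, array weights gave 3 (2 higher and 1 lower) and a further quantile normalization 1, against 0 as reported, and leaving out 1 animal at a time gave 0 to 4. In PT against Ctrl the counts were 8 (7 higher and 1 lower) and 5, against 3, and 2 to 6 without 1 animal, of which 4 were higher and 2 lower without PT replicate 3. Shares of all genes rose too, with array weights to 4.82% between PT + HS and PT, against 1.12%, and to 9.16% in PT against Ctrl, against 3.67%, and without PT replicate 3 to 8.21%. A further quantile normalization gave 1.26% and 3.84% of all genes. Leaving out 1 animal at a time gave 1.03% to 4.7% between PT + HS and PT and 2.91% to 8.21% in PT against Ctrl. The next 2 genes are from the fit with array weights. With array weights Ifitm6 and Zbp1 passed an adjusted p under 0.05 in PT against Ctrl (smallest 0.0196), as did 448 of all 18194 genes. PT replicate 2 was weighted at 0.227 and PT replicate 1 at 4.96 in that fit. In PT + HS against Ctrl the methods' t-test called 3 (2.98% of all genes) and the fit on 2 groups alone 8 (4.94%), against 5 (3.28%). Without 1 animal 4 to 7 were called, against 2.67% to 4.57% of all genes. With the replicate number as a block, 1 gene was called between PT + HS and PT, and 6 each in PT + HS and PT against Ctrl. The shares of all genes were then 1.45%, 3.81% and 4.08%. Deviations of animals with the same number correlated at -0.115 to 0.478, the highest being between PT and Ctrl replicate 3. Whether animals with the same number belong together was not tested. Trim30a lost its call with arrays set to equal medians or with dim genes left out. The methods' t-test did not call Trim30a or Ifitm2 in PT + HS or Ifitm6 in PT. The median differences shifted from the reported values by less than the spread between animals (SD 0.13) under array weights, both scalings, the filter, the mean of probe sets and the removal of 1 animal, with ranges without 1 animal of -0.05 to 0.16 between PT + HS and PT, 0.12 to 0.29 between PT + HS and Ctrl, and 0.16 to 0.23 between PT and Ctrl. The median between PT + HS and PT changed sign without PT + HS replicate 1 (-0.05). In 7 of 16 genes with several probe sets these differed in sign for PT + HS against Ctrl.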
